A study of Mus musculus with 6 samples.

Results

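The ATF4 amino acid response genes are 34 genes picked by name: the stress transcription factor Atf4, its partner and downstream factors, and its reported target genes of amino acid synthesis, one-carbon metabolism, amino acid transport and stress signalling. All 34 were listed among the 15063 genes with an expression value, and 33 of them were tested, having an RPKM of 1 or more in 3 or more libraries. RPKM is the number of reads per kilobase of gene, scaled to the size of the library. The cells were mesenchymal stem cells (MSCs), adherent stromal progenitors of bone, fat and cartilage, grown from the marrow of mice aged 3 weeks. The CKO group had 3 libraries from Mapk7 conditional knockout mice, all at passage 5. The WT group had 3 libraries from wild-type mice, of which libraries 1 and 3 were at passage 5 and library 2 at passage 7. The gene that drives Cre in the knockout is not given in the sources used here. WT libraries 1 and 2 carry the label of a single animal in their descriptions. Separate litters or culture days are not stated for any group, so each p-value is about the spread among these 6 libraries only.

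ATF4 is the effector of the integrated stress response. Kinases that sense amino acid shortage (GCN2), unfolded protein in the endoplasmic reticulum (PERK), viral RNA or heme deficit phosphorylate the translation factor eIF2α, which slows most translation but favours translation of the Atf4 transcript, so ATF4 activity is set in large part after transcription. ATF4 then pairs with C/EBP proteins and binds composite C/EBP-ATF response elements in genes that import and make amino acids, charge transfer RNAs and, when stress persists, slow growth or promote cell death. In the osteoblast lineage ATF4 is known as a regulator of differentiation and of the amino acid supply for collagen synthesis.

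The C/EBP-ATF response element is shown first because ATF4 is known to act on target genes through it. It was searched as TGATGNAA on either strand, which reads TTNCATCA on the other strand, in RefSeq windows of GRCm38.p6 from 250 bases before to 50 bases after each annotated start. Windows were at hand for 29 of the 34 members, of which 9 (31%) held at least 1 match, against 1219 of 27025 genes in the whole RefSeq table (4.51%) and 241 of 8917 of the genes tested here (2.7%). Since the members were picked largely as reported ATF4 targets, a higher share among them may follow from that choice, and the shares are no test. A match is a description of letters in the window and not a measured binding site, and a gene without one may hold the element elsewhere. Capitals mark the matches in the sequences, each given 5′ to 3′ on the strand of the gene. The first 4 windows run over the 250 bases before the start, for a transcription factor gene (Atf3), the asparagine synthetase gene (Asns), the cystine transporter gene (Slc7a11) and a glutathione-degrading enzyme gene (Chac1).
Atf3, chr1:191183334-191183583, minus strand: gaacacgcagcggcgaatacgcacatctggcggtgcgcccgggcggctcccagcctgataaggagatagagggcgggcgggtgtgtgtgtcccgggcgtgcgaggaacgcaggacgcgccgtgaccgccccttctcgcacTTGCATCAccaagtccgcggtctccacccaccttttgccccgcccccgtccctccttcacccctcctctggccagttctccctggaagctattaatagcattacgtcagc
Asns, chr6:7693210-7693459, minus strand: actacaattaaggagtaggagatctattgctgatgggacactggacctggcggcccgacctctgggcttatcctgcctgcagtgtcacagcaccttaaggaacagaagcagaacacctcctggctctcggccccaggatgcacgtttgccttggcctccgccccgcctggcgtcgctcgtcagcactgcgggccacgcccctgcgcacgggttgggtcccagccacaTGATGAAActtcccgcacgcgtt
Slc7a11, chr3:50443614-50443863, minus strand: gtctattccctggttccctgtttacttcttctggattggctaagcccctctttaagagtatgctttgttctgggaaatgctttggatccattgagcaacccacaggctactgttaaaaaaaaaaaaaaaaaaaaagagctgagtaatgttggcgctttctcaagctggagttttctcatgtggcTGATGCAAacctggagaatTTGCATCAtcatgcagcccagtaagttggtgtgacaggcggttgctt
Chac1, chr2:119350992-119351241, plus strand: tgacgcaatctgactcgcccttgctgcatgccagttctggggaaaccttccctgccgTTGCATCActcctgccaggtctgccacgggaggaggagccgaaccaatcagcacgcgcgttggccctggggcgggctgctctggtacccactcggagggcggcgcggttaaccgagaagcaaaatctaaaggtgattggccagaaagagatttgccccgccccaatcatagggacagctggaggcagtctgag

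Slc7a11 held 2 matches, beginning 66 and 47 bases before the start, one on each strand. The match began 23 bases before the start in Asns, 110 in Atf3 and 193 in Chac1. The other 5 members with a match are given as shorter stretches around it.
Nupr1, chr7:126625547-126625606, minus strand: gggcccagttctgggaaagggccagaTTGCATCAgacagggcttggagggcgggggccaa
Pycr1, chr11:120643818-120643877, minus strand: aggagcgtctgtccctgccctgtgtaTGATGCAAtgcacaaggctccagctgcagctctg
Vldlr, chr19:27216809-27216838, plus strand: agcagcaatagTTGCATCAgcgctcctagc
Slc1a4, chr11:20332699-20332728, minus strand: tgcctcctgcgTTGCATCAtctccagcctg
Trib3, chr2:152344028-152344057, minus strand: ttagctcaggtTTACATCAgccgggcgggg
The 8 letters TTGCATCA were shared, in that orientation, by Atf3, Chac1, Nupr1, Vldlr, Slc1a4 and the second match of Slc7a11, while Trib3 had TTACATCA past its start. Nupr1 carried the same letters as Atf3 and Chac1. Its log2 difference, CKO minus WT, was −1.14, and −0.28 without WT library 2, as described with the stress effector genes. The median log2 difference was 0.42 over the 9 members with a match and 0.50 over the 19 tested members whose windows had none. Whether a match went with the level of a gene was not tested.

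Mapk7 itself, which encodes the kinase ERK5, was at 5.59, 3.84 and 5.45 RPKM in CKO libraries 1 to 3 and 7.12, 6.76 and 9.07 RPKM in WT libraries 1 to 3. Each CKO value thus lay below each WT value without being near 0, an order that 9.18% of all tested genes had. Mapk7 did not pass the limma test at an adjusted p under 0.05 (log2 difference −0.54, SE 0.23, adjusted p = 0.505). Klf2 and Klf4, named with Mapk7 as a check of the labels, also had every CKO value below every WT value. Mean levels were 2.37 RPKM in CKO and 48.3 RPKM in WT for Klf2, and 4.72 and 12.6 RPKM for Klf4. Neither passed (log2 difference −3.79, adjusted p = 0.0765 for Klf2 and −1.32, adjusted p = 0.277 for Klf4). Values listed for a group below are, as for Mapk7, in the order of libraries 1 to 3. The recovered library totals were 17351907 to 20689481 reads. Of 11 stromal markers 10 were tested, among them Col1a1 at 1126 RPKM or more in every library, while Lepr reached at most 0.311 RPKM. The log2 difference, CKO minus WT, was below 0 for 8 of the 10, against 5135 of all 11085 tested genes. Its median over the 10 was −0.57, and none passed. In 3 of the 10, every CKO value lay below every WT value, against 9.18% of all tested genes. These were Pdgfra, Pdgfrb and Cxcl12, named after their values were seen. The means were 7.23 RPKM in CKO and 23.8 RPKM in WT for the growth factor receptor gene Pdgfra. The part of stromal content in the members' values was not tested. Macrophage genes were present in both groups: 14 of 15 macrophage markers were listed and none was at 0, with a summed level of 429 to 3429 RPKM in CKO libraries and 791 to 2270.3 RPKM in WT libraries. The highest summed level in any library was 9.42 RPKM for the 5 granulocyte markers listed and 2.55 RPKM for the 5 endothelial ones, and 0.412 and 0.281 RPKM for erythroid and lymphoid markers, of which 1 of 5 each was listed. A pair of libraries stood apart in ways that touch the results. WT library 2, the passage 7 culture, had a mean level of 1.47 on the log2(RPKM + 1) scale over 13 cell cycle genes, against 3.78 to 4.95 in the other libraries. CKO library 3 had a mean level of 8.76 over 14 endoplasmic reticulum chaperone genes, against 6.64 to 6.98 in the other libraries. Bulk libraries cannot tell fewer cells of a type from less RNA per cell.

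Nearly all ATF4 response genes had higher mean levels in CKO than in WT cells, the direction opposite to that of most stromal markers, and none passed the test. The log2 difference lay above 0 for 32 of 33 tested members, against 53.7% of the 11085 genes tested. Its median was 0.56 over the members and 0.034 over all tested genes. The members were chosen with earlier results of these data known, so their shares beside those of all tested genes are no test. The lean was not particular to the members. All 13 cell cycle genes lay above 0, with a median of 0.78, and so did all 14 chaperone genes, with a median of 0.67. Without WT library 2 the cell cycle median was −0.010 with 6 of 13 above 0. Without CKO library 3 the chaperone median was 0.083 with 9 of 14 above 0. At an adjusted p under 0.05 in limma, the share of all tested genes called was 0.00902%, or 1 gene, which is no member, and the members had adjusted p-values of 0.507 to 0.99. At an unadjusted p under 0.05, 2 members were higher in CKO, the arginine and lysine transporter gene Slc7a3 and the mTORC1 inhibitor gene Ddit4, and none was lower, where 3.36% of all tested genes were higher and 6.39% lower by that rule. That count was 0 when WT library 2 or CKO library 3 was left out, but 8 without WT library 1 and 9 without CKO library 2. In 7 of the 33 (21.2%) every CKO value lay above every WT value, against 7.51% of all tested genes: Atf4, Psat1, Shmt2, Mthfd2, Slc7a3, Ddit4 and Eif4ebp1. No member had the opposite order, which 9.18% of all tested genes had. For 1 gene in 3 against 3 libraries the smallest two-sided p of an exact permutation test is 0.1.

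**Figure D1:**
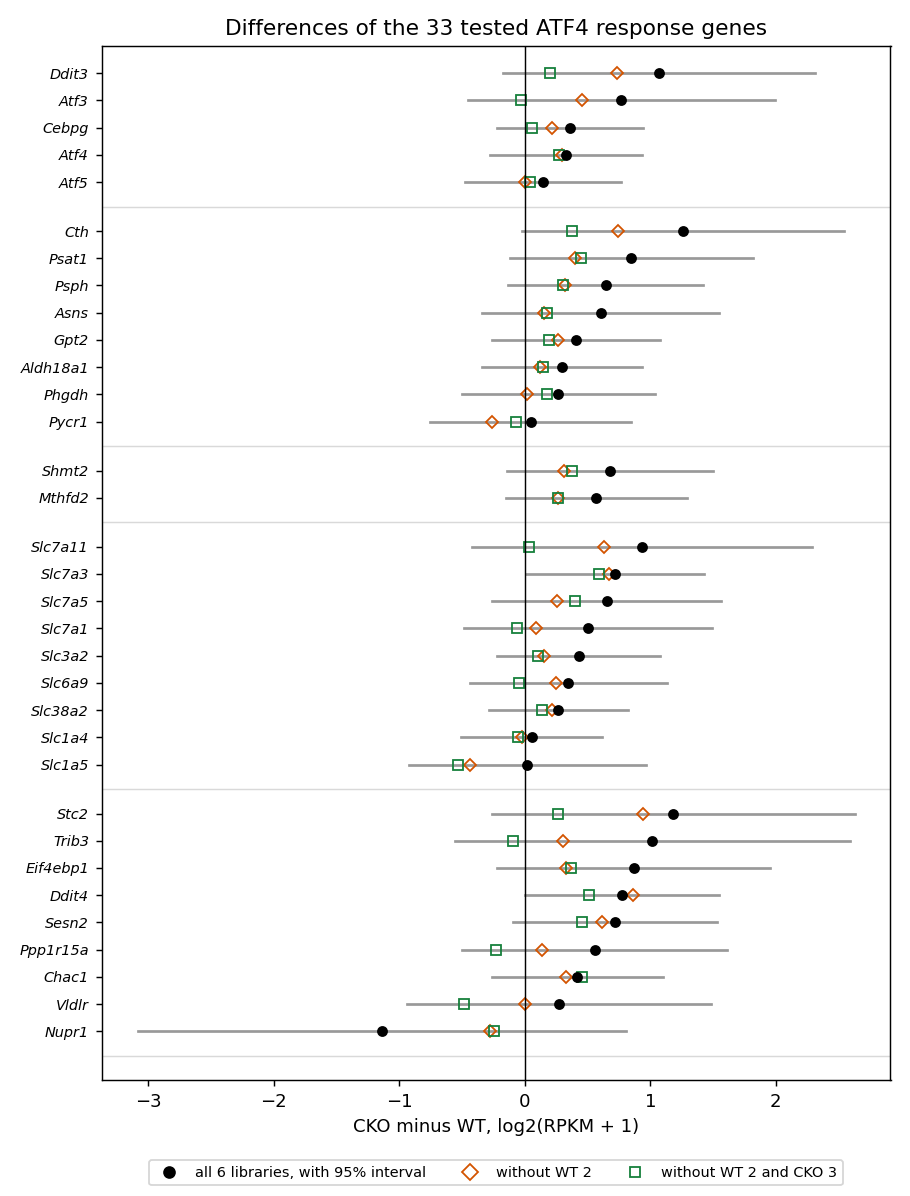
Log2 difference between CKO and WT (x axis, on the log2(RPKM + 1) scale) for the 33 tested members, grouped from top to bottom into transcription factor, amino acid synthesis, one-carbon, transport and stress effector genes. Black points and grey lines are the limma estimate and its 95% interval over all 6 libraries, orange diamonds the estimate without WT library 2 and green squares that without WT library 2 and CKO library 3. Most estimates lie right of 0 and move towards it when these libraries are left out. Asns moves from 0.60 to 0.15 without WT library 2 and to 0.18 without both. Atf4 moves less, from 0.33 to 0.30 without WT library 2 and to 0.27 without both.

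Much of that difference lay in WT library 2. It was the lowest of the 6 libraries for 25 of the 33 members (75.8%), against 36.8% of all tested genes. Without it the median difference of the members was 0.26, with 28 of 33 above 0, beside −0.022 and 46.9% over all genes. CKO library 3 was the highest for 16 members (48.5%), against 21.1% of all tested genes. Without CKO library 3 the median was 0.39, and without both libraries it was 0.18, with 23 of 33 above 0 beside 44.8% of all genes. In the 5 libraries left without WT library 2, all CKO values lay above all WT values in 7 members (8.48% of all tested genes), a count that leaving out a library cannot lower, and below them in 1, Slc1a5 (12.3% of all tested genes). For WT library 2 itself, passage and any other feature that set it apart cannot be told apart.

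**Figure D2:**
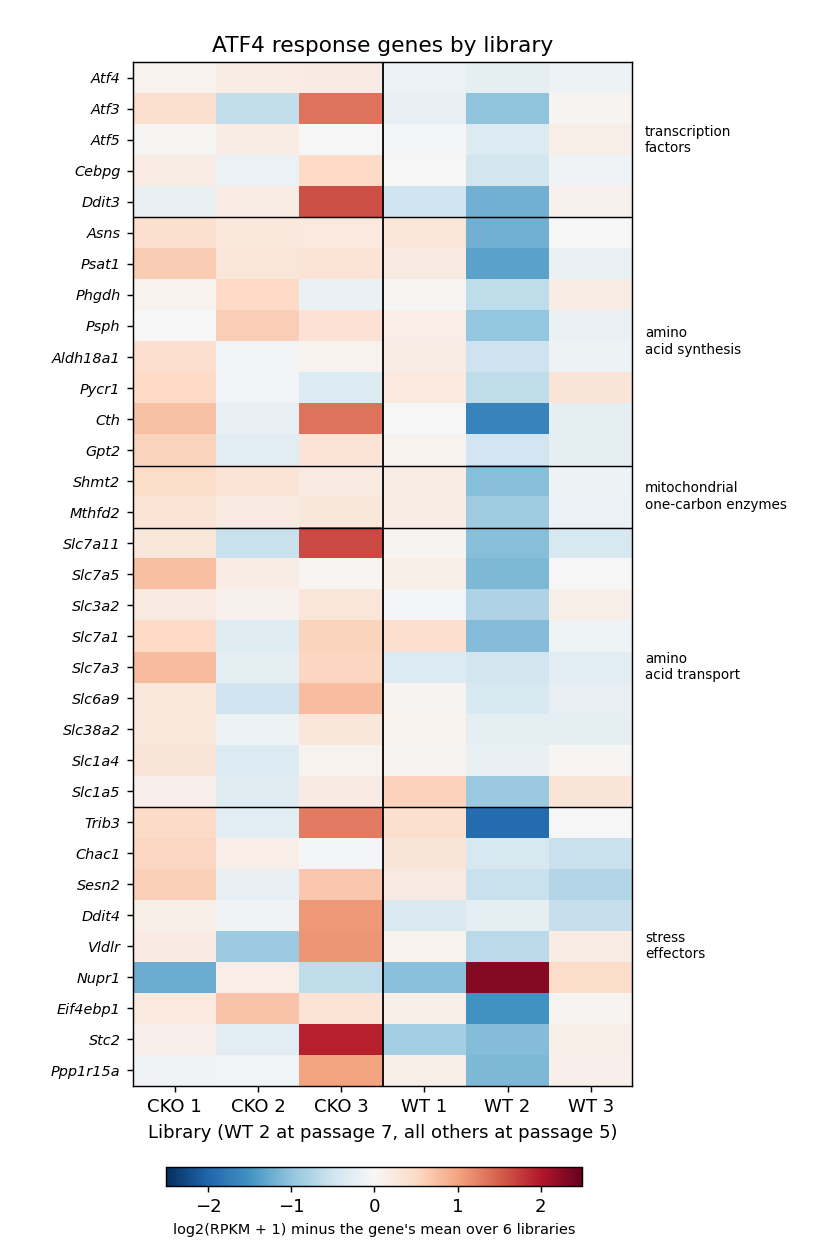
Level of each tested member in each library as its log2(RPKM + 1) minus the member's mean over the 6 libraries (colour scale), with CKO libraries left of the line and WT libraries right of it. The WT 2 column is blue for synthesis, one-carbon and most transport genes and dark red for Nupr1, and the CKO 3 column is red for Ddit3, Atf3, Cth, Slc7a11, Trib3, Ddit4, Vldlr, Stc2 and Ppp1r15a.

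The 5 transcription factor genes all lay above 0, with a median log2 difference of 0.36 that was 0.30 without WT library 2 and 0.056 without both libraries, and none passed. Among them Atf4 was the one whose groups did not overlap. Atf4 was at 329.7, 351 and 356 RPKM in CKO libraries 1 to 3 and 279, 263 and 283 RPKM in WT libraries 1 to 3, the lowest CKO value lying above the highest WT value, and it ranked 188 of 15063 genes by mean RPKM. The groups averaged 346 ± 14.1 RPKM in CKO and 275 ± 11.1 RPKM in WT (SD, n = 3 each), and the gene did not pass (log2 difference 0.33, SE 0.26, adjusted p = 0.69). The gap between the groups exceeded both SDs, whereas the SE draws in part on the spread of other genes of like level. In limma without trend and robust moderation the SE was 0.19, and Atf4 did not pass either (adjusted p = 0.597). In the fit with that moderation the 95% interval ran from −0.27 to 0.93. The estimate was 0.30 when WT library 2 was left out and 0.31 when CKO library 3 was, but 0.16 after quantile normalization. Since the Atf4 transcript is translated under stress by a mechanism that RNA levels do not show, these values say nothing of ATF4 protein. Atf5, a relative of Atf4 whose transcript is under similar translational control, was at 205, 226 and 200.1 RPKM in CKO cells, against 197, 157 and 222 RPKM in WT cells, and its groups overlapped widely. Cebpg encodes a C/EBP partner of ATF4 and was at 13.1, 10.1 and 16.5 RPKM in CKO cells, against 11.5, 7.98 and 10.7 RPKM in WT cells.

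Ddit3 and Atf3, which encode the factors CHOP and ATF3 that act late in the response, were highest in CKO library 3 and lowest in WT library 2. Ddit3 was at 19.3, 25.4 and 69.7 RPKM in CKO libraries 1 to 3 and 15.3, 9.04 and 23.9 RPKM in WT libraries 1 to 3. The value of CKO library 3 was 2.75 times that of the next library, while CKO library 1 lay below WT library 3 and CKO library 2 just above it. Atf3 was at 9.37, 4.16 and 19.1 RPKM in CKO cells, against 5.83, 2.88 and 7.2 RPKM in WT cells, with CKO library 3 again highest, at 2.04 times the next library. Neither passed (log2 difference 1.07, SE 0.53, adjusted p = 0.568 for Ddit3 and log2 difference 0.77, SE 0.52, adjusted p = 0.652 for Atf3). Without CKO library 3 the estimates were 0.53 for Ddit3 and 0.28 for Atf3, and without WT library 2 they were 0.74 and 0.45. Without both WT library 2 and CKO library 3 the estimates were 0.20 and −0.033.

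The 8 tested amino acid synthesis genes all lay above 0, with a median log2 difference of 0.51 (0.21 without WT library 2), none passed, and all 8 were lowest in WT library 2. The serine pathway runs from Phgdh over Psat1 to Psph. Psat1, for phosphoserine aminotransferase, was at 186, 149 and 151 RPKM in CKO libraries 1 to 3 and 140.1, 47.2 and 106 RPKM in WT libraries 1 to 3. Its groups did not overlap, and the nearest values were 149 RPKM in CKO library 2 and 140.1 RPKM in WT library 1 (log2 difference 0.85, SE 0.41, adjusted p = 0.565). Psph, for the phosphatase of the last step, was at 15, 23.5 and 19.6 RPKM in CKO cells, against 17, 7.19 and 13.3 RPKM in WT cells. Phgdh, for the dehydrogenase that commits glycolytic carbon to serine, was at 160.4, 212 and 133 RPKM in CKO cells, against 154, 97.2 and 172 RPKM in WT cells, with its lowest CKO value below both passage 5 WT values. Over the pathway the difference was thus larger for Psat1 (0.85) and Psph (0.64) than for Phgdh (0.27), though no test compared them.

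Asns, which makes asparagine and is a classical reporter of amino acid shortage, was at 126, 114 and 113 RPKM in CKO libraries 1 to 3 and 118, 40.6 and 94.7 RPKM in WT libraries 1 to 3. CKO values were close together and WT library 1 lay among them, so the estimate of 0.60 over 6 libraries (95% interval −0.34 to 1.55, adjusted p = 0.649) was 0.15 without WT library 2. Aldh18a1 and Pycr1 serve proline synthesis, which matters to cells that secrete collagen. Aldh18a1, for the enzyme of the first step, was at 93.5, 66.1 and 73.8 RPKM in CKO cells, against 78.8, 48.4 and 63.7 RPKM in WT cells, with overlapping groups (log2 difference 0.30, 95% interval −0.34 to 0.94). Pycr1, for the reductase of the last step, was at 30.7, 20.3 and 16.6 RPKM in CKO cells, against 25.5, 13.4 and 27.1 RPKM in WT cells, and its difference of 0.048 turned to −0.26 without WT library 2. Gpt2, for mitochondrial alanine aminotransferase, was at 12.2, 6.38 and 10.5 RPKM in CKO cells, against 8.62, 5.43 and 6.74 RPKM in WT cells.

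The transsulfuration genes make cysteine from methionine by way of Cbs and then Cth. Cth, for cystathionine gamma-lyase, had the highest log2 difference of the tested members over all 6 libraries and was at 31, 15.7 and 48.2 RPKM in CKO libraries 1 to 3 and 18.2, 5.07 and 15.5 RPKM in WT libraries 1 to 3. CKO libraries 3 and 1 were highest, but CKO library 2 lay between WT library 3 and WT library 1, and the gene did not pass (log2 difference 1.26, SE 0.54, adjusted p = 0.523). Its estimate was 0.74 without WT library 2 and 0.38 without both libraries. Cbs was the member below the filter on low values, at 0.507, 0.42 and 0.978 RPKM in CKO cells, against 0.234, 0.375 and 0.298 RPKM in WT cells, from 11 to 47 reads per library. Its CKO values lay above its WT values, at levels where a few reads move the value, and it was not tested.

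The mitochondrial one-carbon enzymes turn serine into formate for nucleotide synthesis, and neither passed. Shmt2, for serine hydroxymethyltransferase, was at 116, 107 and 98.5 RPKM in CKO libraries 1 to 3 and 96, 39.8 and 76.8 RPKM in WT libraries 1 to 3. Mthfd2, for the dehydrogenase and cyclohydrolase that follows, was at 74.9, 68.8 and 71.6 RPKM in CKO cells, against 67.2, 31.1 and 52.8 RPKM in WT cells. In both genes each CKO value lay above each WT value and WT library 2 was far below the other libraries. The nearest values were close, at 98.5 RPKM in CKO library 3 and 96 RPKM in WT library 1 for Shmt2, and at 68.8 RPKM in CKO library 2 and 67.2 RPKM in WT library 1 for Mthfd2. The differences were 0.68 (SE 0.35, adjusted p = 0.584) and 0.57 (SE 0.31, adjusted p = 0.592), and 0.31 and 0.26 without WT library 2. One-carbon metabolism feeds DNA synthesis, and the cell cycle genes too were lowest in WT library 2; their part in these values was not tested.

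**Figure D3:**
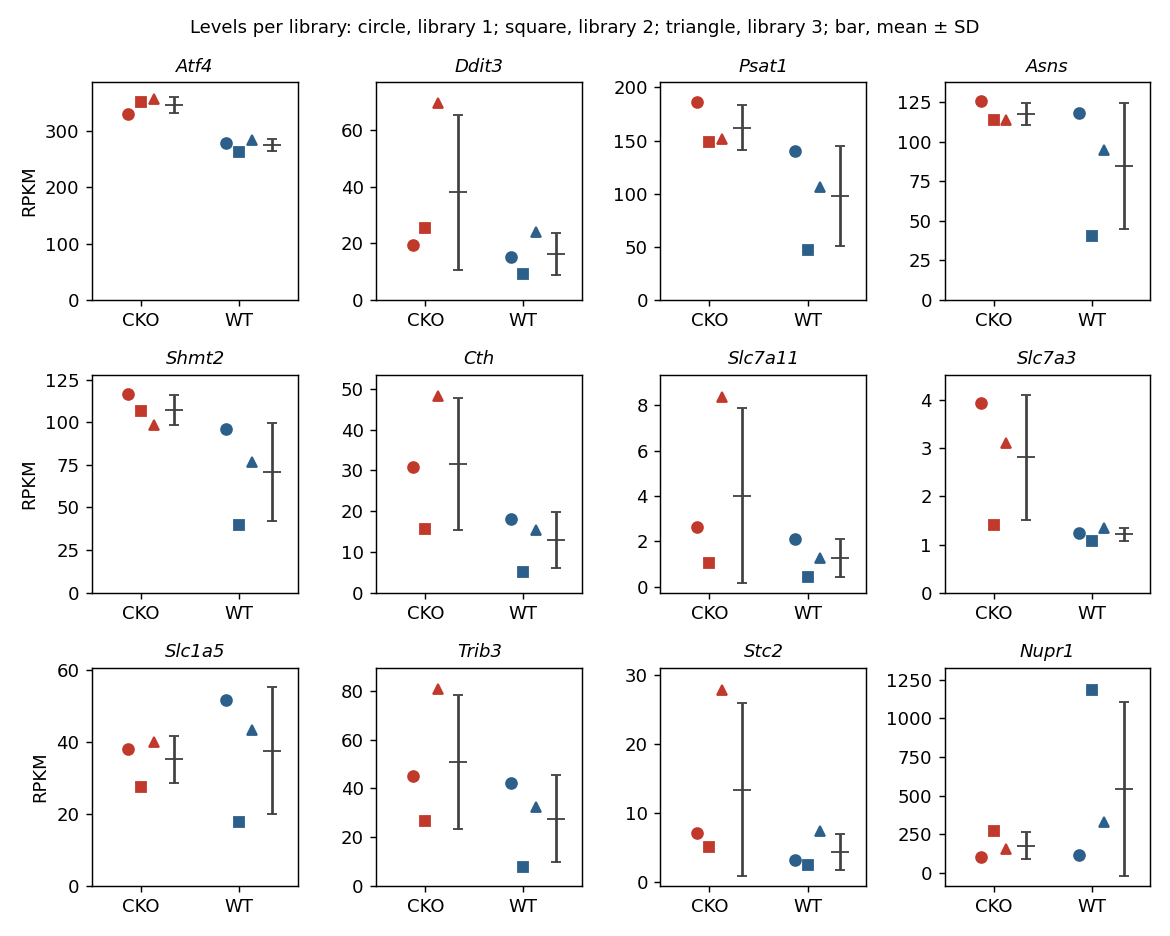
RPKM (y axes) of 12 members in CKO (red, left) and WT (blue, right) libraries, with circles, squares and triangles for libraries 1, 2 and 3 and bars for the mean ± SD over n = 3. Atf4, Psat1, Shmt2 and Slc7a3 show no overlap, WT library 2 is lowest for Asns and Cth and highest for Nupr1 at 1184 RPKM, and CKO library 3 is highest for Ddit3, Cth, Slc7a11, Trib3 and Stc2.

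All 9 amino acid transporter genes lay above 0, with a median log2 difference of 0.43, and none passed. Without WT library 2 the median was 0.21 and 7 lay above 0, and without both libraries it was 0.035 with 5 above 0. Slc7a3, for a transporter of arginine and lysine, was the transporter whose groups did not overlap, at 3.94, 1.4 and 3.11 RPKM in CKO libraries 1 to 3 and 1.23, 1.08 and 1.35 RPKM in WT libraries 1 to 3. CKO library 2, at 1.4 RPKM, lay just above WT library 3, and the other CKO values were well above all WT values (log2 difference 0.72, SE 0.30, adjusted p = 0.507). Its estimate held without WT library 2 (0.67) and without both libraries (0.59). The related gene Slc7a1, which is more widely expressed, was at 21.7, 11.9 and 22.5 RPKM in CKO cells, against 20.4, 6.58 and 13.9 RPKM in WT cells, with overlapping groups.

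Slc7a5 and Slc7a11 encode the light chains LAT1 and xCT, which import leucine and cystine when joined to the heavy chain encoded by Slc3a2. Slc7a5 was at 105, 69.9 and 63.7 RPKM in CKO cells, against 68.6, 27.9 and 61.2 RPKM in WT cells. CKO library 1 was highest and WT library 2 lowest, and CKO library 3 lay between WT libraries 3 and 1 (log2 difference 0.65, SE 0.39, adjusted p = 0.61). Slc7a11 was low in most libraries, at 2.63, 1.02 and 8.37 RPKM in CKO libraries 1 to 3 and 2.1, 0.414 and 1.25 RPKM in WT libraries 1 to 3, and CKO library 3 stood at 3.18 times the next library. Its difference of 0.93 was 0.035 without both WT library 2 and CKO library 3. Slc3a2 was at 35.5, 32.5 and 37.3 RPKM in CKO cells, against 29.6, 17.2 and 33.4 RPKM in WT cells. The gene length recovered from these values was 9850 bases, which the sources used here do not state.

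Over all 6 libraries the remaining transporters had the smallest estimates, an order that did not hold without WT library 2 and that no test compared. Slc38a2, for a sodium-coupled importer of small neutral amino acids, was at 75.6, 57.5 and 76.9 RPKM in CKO cells, against 67, 53.4 and 53.1 RPKM in WT cells. Slc6a9, for a glycine transporter, was at 17.3, 9.83 and 25 RPKM in CKO cells, against 15, 10.8 and 12.3 RPKM in WT cells, and its lowest value was in CKO library 2. These groups overlapped. Slc1a4, for a transporter of alanine, serine and cysteine, was at 39.9, 24.8 and 33.8 RPKM in CKO cells, against 33.1, 27.7 and 32.4 RPKM in WT cells. Slc1a5, for the related glutamine transporter, was at 37.9, 27.5 and 39.8 RPKM in CKO libraries 1 to 3 and 51.5, 17.6 and 43.1 RPKM in WT libraries 1 to 3, the member whose estimate was nearest 0 (0.022, 95% interval −0.93 to 0.97). Among passage 5 libraries each CKO value of Slc1a5 lay below both WT values, and its estimate without WT library 2 was −0.44. It was also −0.041 without CKO library 1 and −0.076 without CKO library 3, so it had no steady direction.

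Of the 9 stress effector genes, 8 lay above 0 and Nupr1 below, with a median log2 difference of 0.72 and none past the test. Leaving out WT library 2 gave a median of 0.33, and leaving out CKO library 3 as well gave 0.27. Ddit4, for the mTORC1 inhibitor REDD1, was at 39.6, 33.4 and 76.6 RPKM in CKO libraries 1 to 3 and 27.4, 30.3 and 23.3 RPKM in WT libraries 1 to 3. Its groups did not overlap, and WT library 2 was its highest WT value, so the difference of 0.78 (SE 0.33, adjusted p = 0.511) stood at 0.86 when that library was left out and at 0.42 when CKO library 3 was. Sesn2, for another mTORC1 inhibitor that senses leucine, was at 36.2, 20.5 and 38.6 RPKM in CKO cells, against 27.9, 15.7 and 13.8 RPKM in WT cells. It was highest in CKO libraries 3 and 1, while CKO library 2 lay below WT library 1. Eif4ebp1, for a repressor of cap-dependent translation, was at 141, 195 and 151 RPKM in CKO cells, against 131, 41 and 125 RPKM in WT cells, with no overlap but with WT library 2 far below all other libraries (log2 difference 0.87, SE 0.47, adjusted p = 0.59).

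Trib3, Stc2, Ppp1r15a and Vldlr shared a high value in CKO library 3. Trib3, for a pseudokinase that restrains ATF4 and AKT, was at 45, 26.7 and 80.7 RPKM in CKO libraries 1 to 3 and 42.4, 7.71 and 32.3 RPKM in WT libraries 1 to 3, with WT library 2 lowest and WT library 1 near CKO library 1. Stc2, for the secreted glycoprotein stanniocalcin 2, was at 7.22, 5.19 and 27.8 RPKM in CKO cells, against 3.18, 2.56 and 7.39 RPKM in WT cells, and its value in CKO library 3 was 3.77 times the next, which was WT library 3. Both spreads within CKO exceeded the difference between the groups (log2 difference 1.02, SE 0.66, adjusted p = 0.642 for Trib3 and log2 difference 1.18, SE 0.61, adjusted p = 0.586 for Stc2). Ppp1r15a, for GADD34, the subunit that brings a phosphatase to eIF2α and so ends the response, was at 44.9, 45.7 and 97.4 RPKM in CKO cells, against 53.6, 21.6 and 52.8 RPKM in WT cells. Vldlr, for a lipoprotein receptor, was at 5.5, 2.0002 and 11.1 RPKM in CKO cells, against 4.99, 2.51 and 5.4 RPKM in WT cells, and CKO library 2 was its lowest library. Without both WT library 2 and CKO library 3 the estimates were −0.090 for Trib3, 0.27 for Stc2, −0.23 for Ppp1r15a and −0.49 for Vldlr. Chac1, for an enzyme that degrades glutathione, did not share the CKO library 3 value and was at 30.4, 23.6 and 20.2 RPKM in CKO cells, against 26.4, 15.7 and 13.9 RPKM in WT cells.

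Nupr1, for a small stress-induced chromatin protein, was the member with a negative difference. It was at 101, 272 and 154 RPKM in CKO libraries 1 to 3 and 116, 1184 and 331 RPKM in WT libraries 1 to 3, so that WT library 2 held 3.58 times the level of the next library. The gene did not pass (log2 difference −1.14, SE 0.82, adjusted p = 0.668), and its estimate was −0.28 without WT library 2. In that library Nupr1 was thus highest while 25 other members were lowest.

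WT library 2 was lowest for 25 of the 33 tested members. Of the 16 members highest in CKO library 3, 11 were also lowest in WT library 2. That share is no higher than among all tested members, so the overlap shows no link between these libraries. The overlap over all tested genes was not counted. By role, WT library 2 was lowest for all 8 synthesis genes, both one-carbon genes and all 5 transcription factor genes, but for 6 of 9 transporters and 4 of 9 effectors. Its Trib3 level was 0.206 times the mean of the other WT libraries, that of Cth 0.301 times, that of Asns 0.381 times and that of Atf4 0.933 times. CKO library 3 was highest for 4 of 5 transcription factor genes, 5 of 9 transporters and 6 of 9 effectors, but for 1 of 8 synthesis genes and neither one-carbon gene. Against the mean of the other CKO libraries it held 4.58 times the Slc7a11, 4.49 times the Stc2 and 3.12 times the Ddit3 level, and 0.948 times the Asns and 1.05 times the Atf4 level. These ratios describe single libraries and have no replicate.

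**Figure D4:**
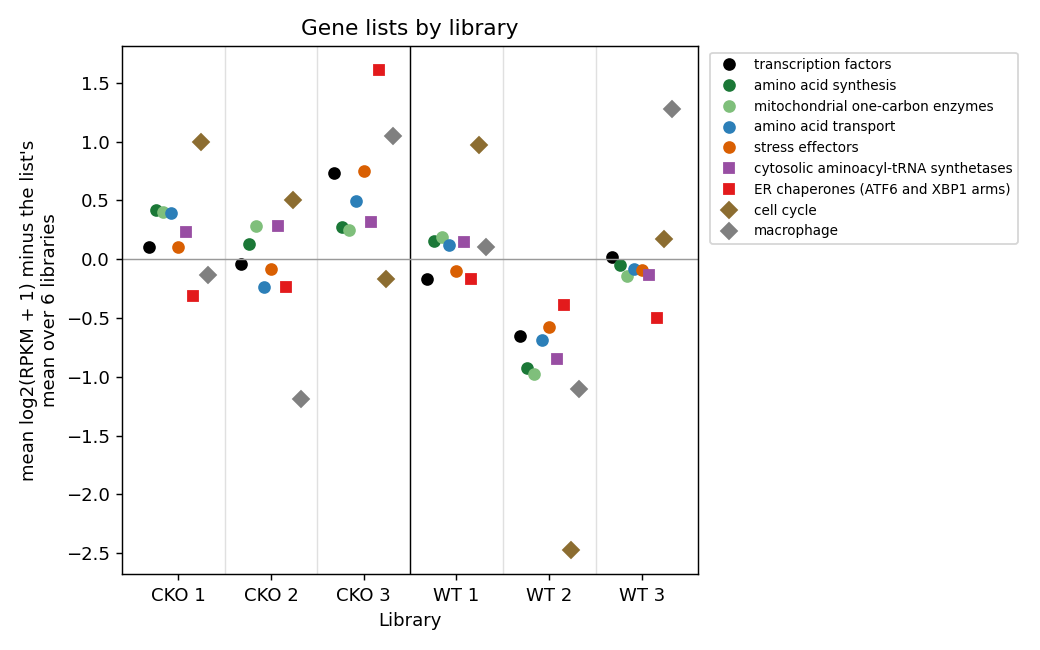
Mean log2(RPKM + 1) of the tested genes of 9 lists in each library, minus each list's mean over the 6 libraries (y axis), with CKO libraries left of the black line. Circles are the 5 groups of members, squares the transfer RNA synthetase and chaperone genes, and diamonds the cell cycle and macrophage genes. In WT 2 the synthesis genes sit at −0.93, the synthetases at −0.85 and the cell cycle genes at −2.48, and in CKO 3 the effectors sit at 0.75 and the chaperones at 1.61.

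High in CKO library 3 beside the members were the chaperone genes of the other arms of the unfolded protein response. All 14 were highest there, as for Hspa5, the gene of the chaperone BiP, at 712, 675 and 3821 RPKM in CKO cells, against 739.5, 444 and 553 RPKM in WT cells. No chaperone gene passed, the list's median difference was 0.67, and without CKO library 3 it was 0.083. Macrophage markers were, as a list, highest in CKO library 3 and in WT library 3, though not each marker was. In CKO library 3 Lyz2 alone was at 2948 RPKM, while Csf1r was at 10.2 RPKM there, against 12.4 RPKM in CKO library 1. Their mean log2 level was 5.38 in CKO library 3 and 5.61 in WT library 3, their summed level 3429 RPKM in CKO library 3 and 2270.3 RPKM in WT library 3, and 6 of 14 were highest in CKO library 3 and 8 in WT library 3. Over all 6 libraries 6 of 14 macrophage markers lay above 0, with a median log2 difference of −0.15. Without both WT library 2 and CKO library 3, 0 of 14 did, with a median of −1.40, beside 44.8% of all tested genes above 0. In that setting every CKO value lay below every WT value in 12 of 14, against 20.2% of all tested genes. The part of chaperone level or macrophage content in the members' values was not tested.

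Other genes of the pathway gave no call either. The cytosolic aminoacyl-tRNA synthetase genes, which charge transfer RNAs and include known ATF4 targets, leaned the same way as the synthesis members. Of these, 19 of 19 tested lay above 0 with a median of 0.54, all 19 were lowest in WT library 2, against 36.8% of all tested genes, and in 6 every CKO value lay above every WT value, against 7.51% of all tested genes. Nars, for the asparaginyl synthetase, was at 214, 204 and 253 RPKM in CKO cells, against 169, 70.5 and 131 RPKM in WT cells (adjusted p = 0.47), and Rars, for the arginyl synthetase, at 69.3, 90.7 and 91.6 RPKM in CKO cells, against 64, 27.7 and 49.3 RPKM in WT cells (adjusted p = 0.454). Both sets of values lay apart, and without WT library 2 the median of the list was 0.27 with 19 of 19 above 0. Upstream, the genes of eIF2α, its kinases, a phosphatase subunit and eIF2B had a median of 0.038 with 7 of 13 above 0. Eif2ak4, which encodes the amino acid sensor GCN2, was at 6.69, 4.91 and 6.58 RPKM in CKO cells, against 5.33, 3.65 and 4.09 RPKM in WT cells, with CKO library 2 below WT library 1.

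The lowest p-values among the upstream genes were those of Eif2b3, for a subunit of eIF2B, and Eif2s1, for eIF2α itself. Eif2b3 was at 6.76, 12.5 and 7.79 RPKM in CKO cells, against 6.88, 3.76 and 5.94 RPKM in WT cells (log2 difference 0.61, SE 0.30, adjusted p = 0.568), and Eif2s1 was at 42.1, 59.6 and 41.4 RPKM in CKO cells, against 41.6, 16.5 and 33.5 RPKM in WT cells (log2 difference 0.70, SE 0.36, adjusted p = 0.584). In each gene a single CKO value lay below WT library 1, and WT library 2 was lowest. The other one-carbon genes had a median of 0.25 with 8 of 12 above 0, but a median of 0.010 with 6 above 0 without WT library 2. Mthfd1l, for the mitochondrial formate-releasing enzyme, was at 15.8, 13.2 and 20.5 RPKM in CKO cells, against 16.4, 3.79 and 13.5 RPKM in WT cells. Aldh1l1, for an enzyme that oxidizes formyl-folate, ran the other way, at 1.6, 1.05 and 4.15 RPKM in CKO cells, against 2.3, 8.52 and 5.11 RPKM in WT cells. Of 10 other reported ATF4 targets, 7 lay above 0 with a median of 0.28 and none passed. Without WT library 2 these were 5 and 0.034, and without both libraries 3 and −0.12. Fgf21, for a secreted stress hormone, was at 4.74, 5.46 and 3.09 RPKM in CKO cells, against 1.4, 0.97 and 3.47 RPKM in WT cells (log2 difference 0.95, SE 0.36, adjusted p = 0.45). Gdf15, for a stress-induced cytokine, was at 9.78, 6.11 and 17.5 RPKM in CKO cells, against 7.13, 3.21 and 8.84 RPKM in WT cells, with CKO library 3 highest. Jdp2, for a bZIP repressor, had all its CKO values below its WT values, at 23.8, 24.1 and 16.1 RPKM in CKO cells, against 26.1, 33 and 38.5 RPKM in WT cells (log2 difference −0.59, SE 0.25, adjusted p = 0.511).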

How the data were processed

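Gene expression was measured by RNA-seq of 3 CKO and 3 WT MSC libraries, prepared with a stranded mRNA kit per the labels' protocols. The authors deposited 1 RPKM value per gene and library. No header names the unit, which follows from the numbers: once a whole library total and a whole gene length were found, 99.99% of the 15063 genes came out as whole reads in every library, within 0.01 read or a relative error of 1e-07, against 0 of 500 genes with shuffled values. For a 1 kb gene, 3 reads equal 0.145 to 0.173 RPKM (counting error only). The submitters' processing notes name mm9. The sources used here do not name the aligner, counter or annotation or say whether strand was used, so overlapping or antisense genes may share reads. Groups and replicate numbers came from the sample titles. For WT library 3 the file header and the description give different animal numbers.

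Log2(RPKM + 1) was tested in 11085 genes that reached RPKM 1 in 3 or more libraries. The test was limma 3.58.1 (R 4.3.3) on genotype alone, with trend and robust moderation, two-sided p and Benjamini-Hochberg adjustment over all tested genes (threshold 0.05). Differences on this scale understate the change of low genes. Scripts were tested on simulated data. The members, lists and motif were chosen with earlier results of these data known. All members are accounted for, and of each other list some of the 4 genes with the lowest p, plus Mapk7, Klf2 and Klf4, are named. Hspa5, Col1a1, Lepr, Pdgfra, Pdgfrb, Cxcl12, Lyz2 and Csf1r were chosen after their values were seen. Other settings tried were other normalizations (median centring, quantile), other filters (none, RPKM 5), a pseudocount of 0.1, plain moderation, voom on the recovered reads, each library left out, WT libraries 1 and 2 averaged into 1, and a replicate block. Leaving out both WT library 2 and CKO library 3 was chosen after seeing the data. Promoter sequences are RefSeq's for GRCm38.p6, another build than the files', and 33 of 35 member windows matched a GENCODE transcript in the sense direction.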

Additional observations from a re-analysis of the deposited data

How the results depend on the processing

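No member passed the test over all genes under any of the 16 alternatives, where the lowest adjusted p of a member was 0.278. At an unadjusted p under 0.05, 2 members in the fit reported, the count was 0 to 9, with 6 when WT libraries 1 and 2 were merged and 6 with the replicate block. The number of genes passing, 1 in all, was 2 after median centring and after quantile normalization, 4 with the filter at RPKM 5, 50 with WT libraries 1 and 2 merged, 0 with no filter, a pseudocount of 0.1, voom, the replicate block or without both WT library 2 and CKO library 3 (604 to 1399 genes at an unadjusted p under 0.05), and 0 to 24 with 1 library left out (24 without WT library 1, 17 without CKO library 1, 1 without CKO library 2 and 0 without CKO library 3, WT library 2 or WT library 3). The median difference of the members, 0.56, ranged from 0.26 without WT library 2 to 0.77 without WT library 1 and was 0.18 without both libraries. That of the effectors ranged from 0.33 to 0.79 with 1 library left out and was 0.27 without both. Of the members, 9 of 33 changed direction somewhere. Without both libraries the differences were −0.033 for Atf3, −0.073 for Pycr1, −0.065 for Slc7a1, −0.049 for Slc6a9, −0.056 for Slc1a4, −0.53 for Slc1a5, −0.090 for Trib3, −0.49 for Vldlr and −0.23 for Ppp1r15a. With WT libraries 1 and 2 merged they were −0.040 for Pycr1 and −0.061 for Slc1a5. With 1 library left out they ranged from −0.26 to 0.24 for Pycr1, −0.095 to 0.24 for Slc1a4, −0.44 to 0.31 for Slc1a5 and −0.21 to 0.79 for Vldlr. The causes were not tested. The replicate numbers share only a number: deviations of same-numbered libraries correlated at 0.20, 0.014 and −0.019, and with the replicate block 0 genes and 0 members passed, with a median difference of the members of 0.56. Cbs, with 11 to 47 reads per library, is the member most limited by depth.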
